A study of Mus musculus with 20 samples.

Results

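The comparison described here set untreated ApoE-/- livers against untreated wild-type livers of male C57BL/6 mice, 5 arrays a group, out of the 20 arrays of the study. All mice were 14 weeks old and had eaten a high fat diet since week 6, but the formula differed with genotype. The wild-type diet held 35% fat by weight and 0.03% cholesterol, and the ApoE-/- diet held 21% fat and 0.15% cholesterol, so genotype and diet cannot be told apart in any value below. Both groups received no antagonist; the other 10 arrays came from mice of the same genotypes and diets injected with an antagonist of Toll-like receptors 7 and 9 at 15 mg/kg, 3 times a week, from week 6 to 11. Total liver RNA was hybridised to Illumina mouse BeadChips. Of 45281 probes, 14894 had a detection p under 0.05 on 5 or more of the 10 untreated arrays, and these gave 10703 entries, 1 probe per gene symbol (8797) or an unnamed probe (1906). The labels number the replicates but do not say whether each is its own animal, so the tests here rest on array-to-array spread, part of which may be technical.

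Apolipoprotein E sits on remnant lipoproteins and carries them to hepatic receptors for uptake. Mice that lack it keep cholesterol-rich remnants in plasma. In liver cells sterols hold the transcription factor SREBP-2 inactive, which turns down the genes of cholesterol synthesis, while oxysterols activate the LXR receptors, which turn on sterol export genes. Resident macrophages of the liver, the Kupffer cells, take up lipoproteins, and lipid-laden macrophages carry a characteristic set of lipid handling and lysosomal genes.

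The column names fall into 2 sets, replicates 1 to 3 of every group (batch 1) and replicates 4 and 5 (batch 2). In batch 2 both untreated ApoE-/- arrays were on a slide of their own while the untreated wild-type arrays shared another slide with treated arrays, so slide and genotype cannot be told apart there; the batch 1 columns name no slide. Detected probes numbered 15167 ± 604 (SD, n = 5) on the wild-type arrays and 16128 ± 476 on the ApoE-/- arrays. On the normalised log2 scale used throughout, genotypes separated on principal component 1 (34.3% of variance), while component 2 (24.2%) followed the batch. The 23 tested hepatocyte genes had a mean log2 level of 12.15 to 12.38 on wild-type arrays and 12.20 to 12.43 on ApoE-/- arrays, as a liver label calls for.

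In ApoE-/- livers 765 of 10703 entries (7.15%) passed an adjusted p of 0.05 in limma, 558 higher (5.21%) and 207 lower (1.93%). Of these, 181 rose and 40 fell by 2-fold or more, and 22 rose and 14 fell by 4-fold or more. The genes that fell furthest were Apoe itself and enzymes of cholesterol synthesis, and the genes that rose furthest were led by macrophage genes, Cyp2a4 and the acute phase gene Saa3. The median log2 difference over all entries was -0.0052. When arrays were set to equal medians in place of quantile normalisation, 661 entries passed, 574 higher and 87 lower, so the higher share was 86.8% there against 72.9% here, and the median of all entries moved to 0.078. Sizes of dim genes also depend on the background correction: without it, 51 of the 96 called genes named in the text had log2 differences smaller by over 1.5 times, all 96 with the same sign, and the 51 had mean levels of 7.79 or less. Such values are given below for the genes that lead each group. Of the called entries, 105 of the 558 higher and 13 of the 207 lower ones were detected on 2 or fewer arrays of the group where they were low (36 and 2 on 0 arrays). These 118 entries passed the detection rule mainly through the group where they were high, so their differences are descriptions, and the list counts below include them. Each list count below is to be read against the 5.21% of all entries that were higher and the 1.93% that were lower.

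**Figure D1:**
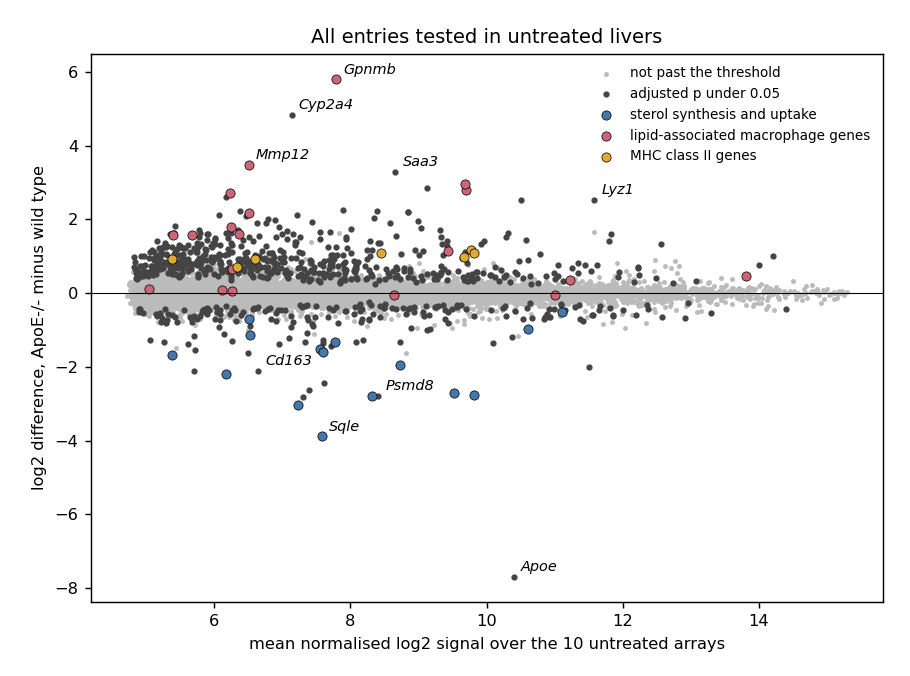
Log2 difference (ApoE-/- minus wild type, vertical) against mean normalised log2 signal over the 10 untreated arrays (horizontal) for the 10703 entries; dark points passed an adjusted p of 0.05 and coloured points are tested members of 3 gene lists. Apoe lies lowest at -7.69, sterol genes lie between -3.88 and -0.51, and Gpnmb lies highest at 5.81.

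Apoe, the gene disrupted in the knockout, read 14.61, 14.61, 14.21, 13.90 and 13.90 on the wild-type arrays and 6.51, 6.84, 6.88, 5.92 and 6.61 on the ApoE-/- arrays. The groups were far apart on every array, in the direction the labels give. The log2 difference was -7.69 ± 0.25 (SE; adjusted p = 1.95e-14), or 207-fold, and the residual signal still passed the detection threshold on 5 of 5 ApoE-/- arrays.

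Genes of sterol synthesis and uptake were lower as a group. Of 23 listed genes 15 were tested; 14 of the 15 fell and 0 rose, with a median log2 difference of -1.69 against -0.0052 over all entries. In the same 14 genes every ApoE-/- array lay below every wild-type array, a pattern seen in 267 of all entries (2.49%); ApoE-/- lay wholly above in 5.23% of entries, and 7.73% had groups that did not overlap either way. The median was -2.04 within batch 1 and -1.74 within batch 2. The mean level over the 15 genes ran from 8.91 to 9.07 on wild-type arrays and from 6.84 to 7.29 on ApoE-/- arrays. Some listed genes are not analysed here.

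Sqle encodes squalene epoxidase, a rate-limiting oxygenation step on the way to lanosterol. It read 9.77, 9.12, 9.40, 9.65 and 9.66 on the wild-type arrays and 6.13, 4.83, 4.81, 6.54 and 5.89 on the ApoE-/- arrays. All 5 ApoE-/- arrays were low, and 2 of them did not pass detection. The log2 difference was -3.88 ± 0.37 (adjusted p = 3.78e-07), a second Sqle probe fell by 2.62, and without background correction the Sqle difference was -2.43.

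Upstream of squalene, Idi1, which interconverts the isoprenoid building blocks, and Fdps, which joins them into farnesyl diphosphate, both fell. Idi1 read 8.85, 8.43, 8.49, 8.82 and 9.10 on the wild-type arrays and 5.39, 5.28, 5.14, 5.77 and 6.97 on the ApoE-/- arrays, a log2 difference of -3.03 ± 0.29 (adjusted p = 4.43e-07). The fifth ApoE-/- array was the least reduced and still lay below all wild-type arrays; without background correction the Idi1 difference was -1.75. Fdps fell from 10.87 ± 0.11 (SD, n = 5) to 8.17 ± 0.33, a difference of -2.71 (adjusted p = 2.88e-07). Mvd, the mevalonate diphosphate decarboxylase, was detected on 5 of 5 wild-type and 0 of 5 ApoE-/- arrays. Mvd passed the detection rule through the wild-type arrays alone, so its fall is a description, with wild type at least 2.57-fold higher. Pmvk, the phosphomevalonate kinase, fell by 1.14 (adjusted p = 0.00238), with differences of -1.52 in batch 1 and -0.58 in batch 2.

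Enzymes after squalene also fell. Msmo1, the sterol C4-methyl oxidase, read 11.13, 11.20, 11.19, 11.20 and 11.29 on the wild-type arrays and 8.21, 8.43, 8.52, 8.50 and 8.54 on the ApoE-/- arrays, a log2 difference of -2.76 ± 0.20 (adjusted p = 7.96e-09). Both Msmo1 groups were tight. Cyp51, the lanosterol demethylase, read 9.84, 9.52, 9.70, 9.79 and 9.72 against 6.91, 6.38, 6.33, 7.31 and 7.66, a difference of -2.80 (adjusted p = 3.65e-07). Nsdhl, which removes the C4 carboxyl group, fell by 2.20. Lss, the lanosterol synthase, fell by 1.51, and Dhcr7, which makes the last reduction, fell by 1.33. Tm7sf2, a sterol C14 reductase, fell by 1.59 and differed by -2.04 in batch 1 and -0.91 in batch 2. Smaller falls had log2 differences of -0.96 for Hsd17b7, the sterol 3-ketoreductase, and -0.51 for Ebp, the sterol isomerase. Sc5d, the C5 desaturase, had a difference of -0.69 with overlapping groups and did not pass (adjusted p = 0.0689); with batch as a block it did (adjusted p = 0.0118). Stard4, an intracellular cholesterol carrier and SREBP target, fell from 9.70 ± 0.17 to 7.76 ± 0.31 (adjusted p = 6.67e-08). Nsdhl signals were low, and its difference was -0.93 without background correction.

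**Figure D2:**
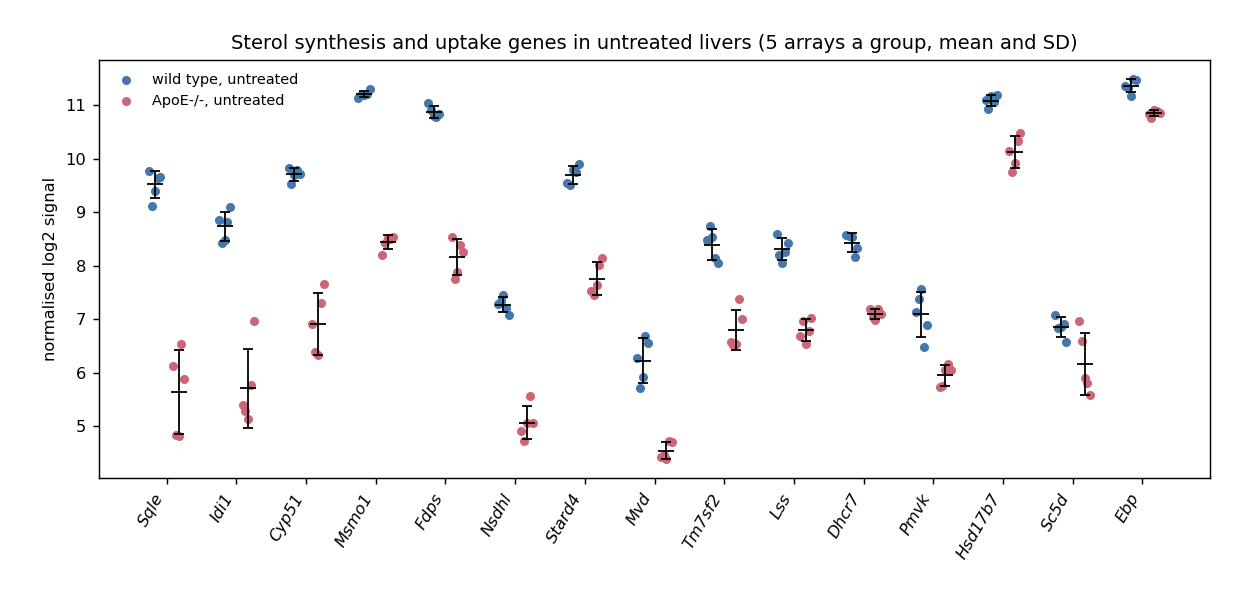
Normalised log2 signal (vertical) of the 15 tested sterol synthesis and uptake genes on each untreated array, ordered by their log2 difference; points are arrays, and bars show the mean and SD of 5 arrays. In every gene but Sc5d all ApoE-/- points lie below all wild-type points.

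Promoter letters of 3 of these genes are shown because the falls were shared across the pathway and NF-Y, a factor that binds CCAAT boxes, acts with SREBP at sterol genes. The sequences are RefSeq windows on GRCm38.p6, each of 300 bases around an annotated start, 5′ to 3′ on the gene's strand, with CCAAT or its reverse ATTGG in capitals. Idi1 lies at chr13:8885356-8885655 on the plus strand, Cyp51 at chr5:4104648-4104947 and Msmo1 at chr8:64733529-64733828, both on the minus strand.
Idi1: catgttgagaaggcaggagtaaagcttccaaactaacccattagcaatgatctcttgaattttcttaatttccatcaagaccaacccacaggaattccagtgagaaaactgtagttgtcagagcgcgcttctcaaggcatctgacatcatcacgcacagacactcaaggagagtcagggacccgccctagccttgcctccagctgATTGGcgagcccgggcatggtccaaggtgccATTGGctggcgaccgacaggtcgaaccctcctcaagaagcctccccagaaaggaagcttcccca
Cyp51: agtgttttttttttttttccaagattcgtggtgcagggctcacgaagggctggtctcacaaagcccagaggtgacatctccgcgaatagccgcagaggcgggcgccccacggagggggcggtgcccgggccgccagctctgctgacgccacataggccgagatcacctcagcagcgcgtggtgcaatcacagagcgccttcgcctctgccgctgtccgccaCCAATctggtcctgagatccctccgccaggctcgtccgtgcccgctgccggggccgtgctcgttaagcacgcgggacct
Msmo1: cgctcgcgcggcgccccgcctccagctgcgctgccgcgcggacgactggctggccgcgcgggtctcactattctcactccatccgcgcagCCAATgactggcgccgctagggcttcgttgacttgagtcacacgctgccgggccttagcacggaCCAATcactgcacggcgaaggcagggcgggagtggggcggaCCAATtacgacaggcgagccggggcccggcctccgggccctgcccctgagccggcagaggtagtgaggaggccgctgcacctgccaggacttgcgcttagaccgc
RefSeq windows were given for 11 of the 14 genes that fell, 14 windows in all, and 11 of the 14 windows (78.6%), at least 1 for each gene, held CCAAT on either strand. Over all 32851 windows of that length 37.4% did. The Idi1 window held 2 matches, that of Cyp51 1 and that of Msmo1 3. The core letters of a sterol element, TCACNCCA on either strand, were in 1 of the 14 windows (Msmo1), against 4.36% of all windows.

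Among sterol regulators, 1 of 12 tested genes rose and 2 fell (25% called, against 7.15% of all entries). Insig1, which retains the SREBP complex in the endoplasmic reticulum and is itself an SREBP target, read 10.77 ± 0.27 in wild type and 9.41 ± 0.37 in ApoE-/- (log2 difference -1.36; adjusted p = 6.32e-05). Srebf2, which encodes SREBP-2, fell by 0.52 with groups that did not overlap (adjusted p = 0.0106). The Srebf2 call was lost in batch 1 alone (adjusted p = 0.0816) and with equal medians (adjusted p = 0.159). Srebf1, which encodes the SREBP form tied to fatty acid synthesis, differed by 0.16 (adjusted p = 0.78). Acsl3, an acyl-CoA synthetase, fell by 0.80 (adjusted p = 0.000834).

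Of 11 tested genes on the cholesterol efflux and esterification list, 4 rose and 0 fell (36.4% called, against 7.15% of all entries), with a median of 0.39. The 4 were Abcg1, Abcg5, Lpl and Scd1. Of these Lpl and Scd1, a lipase and a desaturase, are not efflux or esterification genes, and Lpl is also on a macrophage list below. Abcg1, which exports cholesterol to HDL, was 4.71, 4.72, 5.14, 5.10 and 5.39 on the wild-type arrays and 6.37, 6.78, 6.94, 6.21 and 6.33 on the ApoE-/- arrays, a log2 difference of 1.51 (adjusted p = 4.67e-05; 0.55 without background correction). Abcg5, a subunit of the transporter that secretes sterols into bile, rose by 0.76 (adjusted p = 0.00184; 0.0535 in batch 1 alone), and its partner Abcg8 differed by 0.39 without passing (adjusted p = 0.405). Scd1, the stearoyl-CoA desaturase, rose from 13.71 ± 0.37 to 14.72 ± 0.21 (adjusted p = 0.00128), a call not made in batch 1 alone. Abca1, the exporter of cholesterol to lipid-poor apolipoprotein A-I, differed by 0.04 at a level near background (adjusted p = 0.948). Pltp, the phospholipid transfer protein, differed by 0.94 with overlapping groups (adjusted p = 0.126, and 0.0381 with batch as a block).

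Of 17 tested apolipoprotein and VLDL assembly genes only Apoe fell and Apoa4, an apolipoprotein of triglyceride-rich particles, rose, by 1.61 ± 0.34 (adjusted p = 0.00443) with overlapping groups. Apoc2, the activator of lipoprotein lipase and a close neighbour of Apoe, gave opposite signs on 2 probes. The brighter Apoc2 probe differed by 0.86 (adjusted p = 0.121, and 0.00689 with batch as a block) and the other by -2.66 (adjusted p = 4.73e-09), so no direction is given. In bile acid synthesis and transport 1 of 21 tested genes passed: Slc27a5, the bile acyl-CoA synthetase, fell by 0.66 (adjusted p = 0.00425). Cyp7a1, which catalyses the first and limiting step from cholesterol to bile acids, ranged from 10.94 to 12.34 in wild type and from 9.72 to 12.36 in ApoE-/- and did not pass (log2 difference -0.65; adjusted p = 0.345).

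Macrophage genes were higher. Of the lipid-associated macrophage list, 13 of 19 tested members rose and 0 fell (median 1.58), and of the Kupffer cell and macrophage list, 20 of 24 rose and 1 fell (median 1.04). The shares called were 68.4% and 87.5%, against 7.15% of all entries. Of the risen members 4 and 3 were detected on 2 or fewer wild-type arrays. The mean level of the first list was 6.92 to 7.17 on wild-type and 8.19 to 9.00 on ApoE-/- arrays. The second list ran from 7.25 to 7.73 and from 8.27 to 8.60. Medians within batch 1 were 1.59 and 1.15, and within batch 2 0.94 and 0.75. In whole liver RNA, more macrophages and more RNA per macrophage cannot be told apart.

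Gpnmb, a glycoprotein of lipid-loaded and lysosome-stressed macrophages, had the greatest rise of any named gene. It read 4.49, 4.99, 4.98, 5.33 and 4.65 on the wild-type arrays, where 2 of 5 passed detection, and 11.36, 11.65, 11.16, 9.87 and 9.46 on the ApoE-/- arrays. The 3 batch 1 ApoE-/- arrays were higher than the 2 of batch 2. The log2 difference was 5.81 ± 0.36 (adjusted p = 1.01e-09), and 6.57 in batch 1 and 4.67 in batch 2. A second, dimmer Gpnmb probe rose by 1.79, and without background correction the Gpnmb difference was 3.78.

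Mmp12, the macrophage elastase, read 4.64, 4.42, 4.84, 5.08 and 4.84 on the wild-type arrays and 8.97, 8.80, 8.0, 7.84 and 7.63 on the ApoE-/- arrays (log2 difference 3.48; adjusted p = 3.26e-09). Wild-type Mmp12 passed detection on 1 of 5 arrays, and the difference was 1.70 without background correction. Trem2, the lipid-sensing receptor of these cells, read 4.51, 4.45, 5.11, 5.43 and 4.91 against 7.70, 8.10, 8.04, 7.04 and 7.08 (log2 difference 2.71; adjusted p = 7.07e-07; 1.20 without background correction). Tyrobp, the adaptor through which Trem2 signals, rose by 1.40, with 1.81 in batch 1 and 0.77 in batch 2. Lpl, lipoprotein lipase, which healthy adult hepatocytes express little, read 8.23, 7.79, 8.01, 8.74 and 8.24 against 11.83, 11.21, 11.12, 10.77 and 10.91 (log2 difference 2.96; adjusted p = 2.86e-08). Lgals3, galectin-3, rose from 8.29 ± 0.20 to 11.10 ± 0.36. For both Lpl and Lgals3 signals were well above background on all 10 arrays. The tetraspanins Cd63 and Cd9 rose by 2.16 and 1.61, the actin-capping gene Capg by 1.58, Emp1, a membrane protein, by 1.79, and Ms4a7, a macrophage membrane gene, by 1.58. Other Cd63 probes gave 1.12 and 0.04, the latter near background. The 6 tested members of this list that did not pass were Plin2 (-0.06), Lgals1 (-0.05), Ctsd (0.07), Ctsl (0.09), Mmp13 (0.13) and Fabp5 (0.67).

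In the Kupffer cell and macrophage list, Lyz2, the macrophage lysozyme, read 9.25, 9.06, 9.05, 9.60 and 9.24 on the wild-type arrays and 11.82, 11.81, 11.62, 11.59 and 11.95 on the ApoE-/- arrays. Its log2 difference was 2.52 ± 0.12 (adjusted p = 1.12e-11), with the near-identical Lyz1 at 2.54; signal of the pair may be shared. The complement genes C1qb and C1qc, made by Kupffer cells, rose by 1.42 and 1.53, while C1qa, of the same complex, differed by 0.59 without passing (adjusted p = 0.387). Ctss, a lysosomal protease of antigen processing, rose by 1.41, the complement receptor Vsig4 by 1.35, the folate receptor Folr2 by 1.40, the scavenger receptor Marco by 1.43 and Adgre1, which encodes F4/80, by 1.18. Clec4f, a C-type lectin of Kupffer cells, read 8.96 ± 0.19 and 9.69 ± 0.15 (log2 difference 0.73; adjusted p = 0.0237), a call lost when any of 4 single arrays was left out. Timd4, a receptor for phosphatidylserine on resident macrophages, differed by 0.38 (adjusted p = 0.365).

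Cd163, the haemoglobin scavenger receptor of resident macrophages, went the other way. It read 7.82, 7.86, 7.53, 7.58 and 7.71 on the wild-type arrays and 4.86, 5.37, 5.83, 5.80 and 6.12 on the ApoE-/- arrays, with no overlap. The log2 difference was -2.10 ± 0.20 (adjusted p = 5.16e-07), and -1.03 without background correction. Outside both lists, the C-type lectins Clec7a, the dectin-1 receptor for fungal glucans, and Cd207, known as langerin, were among the 20 greatest rises, at 2.24 and 2.60. Hmox1, which degrades haem, rose by 1.53 (adjusted p = 0.000736).

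**Figure D3:**
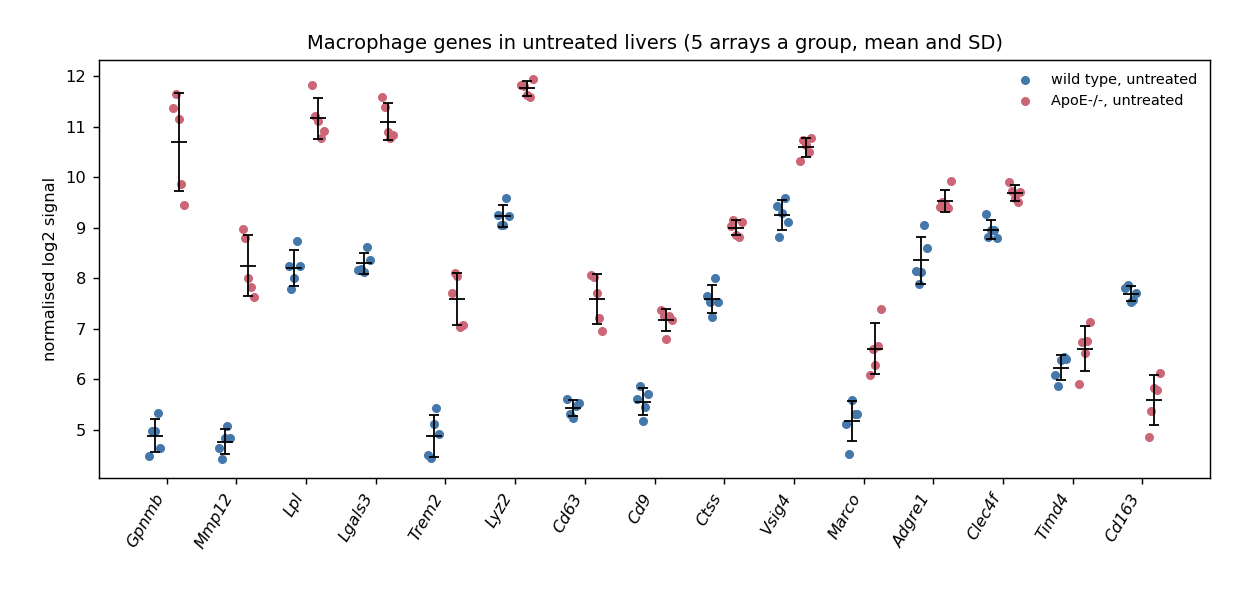
Normalised log2 signal (vertical) of 15 macrophage genes on each untreated array; points are arrays, and bars show the mean and SD of 5 arrays. Gpnmb, Mmp12 and Trem2 sit near 5 in wild type and from about 7 up to 11.65 in ApoE-/-, Timd4 overlaps, and Cd163 is lower in ApoE-/-.

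Lysosomal genes rose in part: 10 of 32 tested members were higher and 0 lower (median 0.21), against 5.21% and 1.93% of all entries. Lgmn, the asparagine endopeptidase, rose from 8.46 ± 0.25 to 10.18 ± 0.18 (adjusted p = 1.32e-08). Ctsa, a protective carboxypeptidase, rose by 1.33 (adjusted p = 0.00218). The macrophage lists moved with these genes, and their part in the lysosomal result was not tested.

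All 7 tested MHC class II genes rose, with a median of 0.97. H2-Ab1, a class II beta chain, read 9.01, 8.76, 8.51, 9.81 and 9.81 on the wild-type arrays and 10.73, 10.44, 10.13, 10.40 and 10.10 on the ApoE-/- arrays. The 2 batch 2 wild-type arrays were the highest of their group, and the H2-Ab1 difference of 1.18 over all arrays (adjusted p = 0.00139) was 1.67 in batch 1 and 0.44 in batch 2. The same gap held for H2-Eb1 (1.10, 1.53 and 0.47), the invariant chain Cd74 (1.09, 1.55 and 0.40) and H2-Aa (0.97, 1.47 and 0.24). The list median was 1.47 in batch 1 and 0.40 in batch 2, where 0 of the 7 passed with 2 arrays a group. Of T and NK cell genes 6 of 23 on the array were tested, of which 1 rose and 1 fell, and the defining markers Cd3e and Cd3d were below the detection rule. Of 3 tested B and plasma cell genes 0 passed.

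Toll-like receptor genes are of interest because the study's antagonist targets receptors 7 and 9. Of 23 tested signalling genes 9 rose and 0 fell (median 0.23), 2 of the 9 with detection on 2 or fewer wild-type arrays. The share called was 39.1%, against 7.15% of all entries. Tlr7, the endosomal receptor for single-stranded RNA, read 4.69, 4.84, 4.93, 5.35 and 4.61 on the wild-type arrays, where 1 of 5 passed detection, and 6.27, 5.73, 5.81, 6.02 and 5.96 on the ApoE-/- arrays. Tlr7 passed the detection rule through the ApoE-/- arrays, and its log2 difference of 1.07 (0.33 without background correction) is read against wild-type signals mostly not above background. Tlr9 was below the detection rule. Unc93b1, the chaperone that carries endosomal receptors, rose by 0.66 (adjusted p = 0.00452; 0.86 in batch 1 and 0.37 in batch 2). At the cell surface, Tlr2 for bacterial lipoproteins rose by 1.53 (2.00 in batch 1 and 0.82 in batch 2), the lipopolysaccharide co-receptor Cd14 by 1.64 and Ly86, which encodes MD-1, by 1.61. The surface receptors Tlr4, detected on 6 of the 10 arrays, and Tlr5, detected on all 10, did not pass. They differed by 0.12 and -0.03 (adjusted p = 0.791 and 0.957). Tnfaip3, an NF-kB feedback inhibitor, rose by 1.64, while the adaptor Myd88 was at 9.15 ± 0.13 and 8.92 ± 0.20 and did not pass (adjusted p = 0.533).

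Of 20 tested chemokine and cytokine genes 9 rose and 1 fell, and of 11 tested adhesion and integrin genes 6 rose and 0 fell. The shares called were 50% and 54.5%, against 7.15% of all entries. Cxcl1, which attracts neutrophils, rose from 7.89 ± 0.36 to 9.43 ± 0.43 (adjusted p = 3.99e-05). Cxcl16, a membrane-bound chemokine that also binds oxidised LDL, rose by 1.09, although a dimmer Cxcl16 probe gave 0.40 (adjusted p = 0.22). Cxcr4, the receptor for Cxcl12, was detected on 0 of 5 wild-type and 5 of 5 ApoE-/- arrays and was at least 1.78-fold higher in ApoE-/-; it passed the detection rule through the ApoE-/- arrays alone. Ccl4 rose by 1.47 (adjusted p = 0.00554), a call lost without background correction and on the authors' processed values. Vcam1, an endothelial ligand for monocytes, read 7.64, 7.66, 7.57, 7.75 and 7.58 against 9.64, 9.84, 9.69, 9.30 and 9.19 (log2 difference 1.89 ± 0.17; adjusted p = 2.03e-07). Icam1 rose by 0.99 with overlapping groups, and the hyaluronan receptor Cd44 by 1.08.

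Acute phase and neutrophil genes rose in part. In the acute phase and complement list 7 of 30 tested members rose and 0 fell (median 0.15), and in the neutrophil list 4 of 6 rose. The shares called were 23.3% and 66.7%, against 7.15% of all entries. Several of the 7, Lcn2 and Cd14 among them, are counted in other lists too. None of the 7 was a complement gene, and C4b, Hc, C9 and Cfb had log2 differences from -0.20 to 0.05. The acute phase genes Hp, Fga, Fgg and Apcs differed by no more than 0.02, and Orm2, at 0.75, did not pass (adjusted p = 0.122). Saa3, the serum amyloid made by macrophages as well as hepatocytes, read 7.45, 6.99, 6.72, 6.76 and 7.12 on the wild-type arrays and 11.08, 11.27, 10.70, 8.90 and 9.58 on the ApoE-/- arrays. The Saa3 difference was 3.30 ± 0.35 (adjusted p = 1.99e-06), and 3.96 in batch 1 and 2.30 in batch 2. The hepatocyte form Saa1 ranged from 9.34 to 13.23 in wild type and from 11.47 to 13.43 in ApoE-/-, and did not pass (log2 difference 1.67; adjusted p = 0.085). Wild-type array 1 had the highest Saa1 value of its group, and without it the Saa1 difference was 2.29 (adjusted p = 0.00258). Lcn2, a siderophore-binding protein of neutrophils and inflamed hepatocytes, rose by 2.85 (adjusted p = 5.91e-05). S100a8 and S100a9, the calprotectin subunits, rose by 1.90 and 1.99, at 2.32 and 2.55 in batch 1 and 1.27 and 1.16 in batch 2. The mean level of the neutrophil list was 5.33 to 6.52 on wild-type and 7.03 to 7.65 on ApoE-/- arrays. Of its 4 risen members 1 was detected on 2 or fewer wild-type arrays. The granule genes Mpo and Elane were below the detection rule. Another granule gene, Prtn3, was detected on all 10 arrays and differed by -0.22 without passing (adjusted p = 0.821). Fpr2, at 0.65, did not pass either (adjusted p = 0.255). In the interferon-stimulated list 5 of 27 tested members rose and 1 fell (22.2% called, against 7.15% of all entries). Oasl2 rose by 1.08, Ifit2 by 0.99 and Ifi27l2a by 1.04. Isg15, Ifit3 and Oas1g, each detected on all 10 arrays, differed by -0.23, 0.19 and 0.36 without passing (adjusted p = 0.612, 0.667 and 0.346). The median of the interferon-stimulated list was 0.43 in batch 1 alone, where 5 rose and 1 fell. It was 0.10 in batch 2 alone, where 0 rose and 0 fell. In a list of interferon-gamma-inducible GTPase genes that also holds Irf1, Cxcl9 and Cxcl10, 0 of 11 tested members passed. The median of those 11 was 0.35 in batch 1 alone, where 2 rose, and -0.42 in batch 2 alone, where 1 fell.

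Endothelial and matrix genes also moved. Of 22 tested endothelial genes 9 rose and 0 fell (median 0.37, 40.9% called against 7.15% of all entries). Lyve1, a hyaluronan receptor of sinusoidal endothelium and some macrophages, rose from 6.72 ± 0.23 to 8.38 ± 0.14 (adjusted p = 0.000163). Cdh5, the endothelial cadherin, rose by 0.68, and Vwf, which passed the detection rule through the ApoE-/- arrays alone, was at least 1.15-fold higher. Of 27 tested stellate cell, fibroblast and matrix genes 10 rose and 0 fell (median 0.32, 37% called). The fibrillar collagen gene Col3a1 read 6.13, 6.33, 5.84, 6.25 and 6.20 against 8.04, 7.69, 7.44, 7.63 and 7.53 (log2 difference 1.52; adjusted p = 1.31e-06; 0.82 without background correction). Col1a1 rose by 1.05 and the filament gene Vim by 1.36, the latter with overlapping groups. Mean levels of the endothelial list were 7.28 to 7.66 in wild type and 7.82 to 7.92 in ApoE-/-, and of the matrix list 7.10 to 7.41 and 7.46 to 7.80. Krt8, a keratin of hepatocytes and bile ducts, rose by 0.59, while the duct markers Krt19, Krt7 and Epcam were below the detection rule.

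Several hepatocyte programmes showed few or no calls. In the hepatocyte list 0 of 23 tested genes passed (differences from -0.70 to 0.53), and the counts were 0 of 21 for glucose production and glycogen, 0 of 15 for clock genes, 0 of 24 for the unfolded protein response, 0 of 22 for male-biased genes and 0 of 19 for nuclear receptors. With batch as a block 1 hepatocyte and 1 male-biased gene rose, and 1 unfolded protein response and 1 nuclear receptor gene fell. Fatty acid oxidation genes numbered 2 higher and 1 lower of 31, fatty acid and triglyceride synthesis 1 and 1 of 21, respiratory chain 1 higher of 65 and ribosomal proteins 1 higher of 49. Each of these shares is near or below the 7.15% of all entries. With batch as a block, where 1038 of the 10703 entries passed, fatty acid oxidation had 2 higher and 2 lower. Fatty acid and triglyceride synthesis then had 1 higher and 3 lower, the respiratory chain 2 higher and ribosomal proteins 1 higher. Of 20 tested Cyp1, Cyp2 and Cyp3 genes 2 rose and 1 fell (15% called).

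Cyp2a4, a steroid hydroxylase that is usually higher in female mouse liver, rose in these male livers. It read 4.48, 4.79, 5.37, 4.44 and 4.49 on the wild-type arrays and 8.01, 8.80, 9.66, 10.94 and 10.38 on the ApoE-/- arrays. It was detected on 1 of 5 wild-type arrays, so the size of the rise is read against a signal mostly not above background. The batch 2 ApoE-/- arrays were highest, and the Cyp2a4 difference of 4.85 was 3.94 in batch 1 and 6.20 in batch 2. Without background correction it was 2.82. The close relative Cyp2a5 can share its signal, which was not tested. Cyp2a5 itself was detected on all 10 arrays and differed by 0.04 (adjusted p = 0.927). The other 5 tested female-biased genes did not pass. Cyp3a11, a major drug-metabolising enzyme, rose from 11.89 ± 0.35 to 13.22 ± 0.11 (adjusted p = 0.00185).

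**Figure D4:**
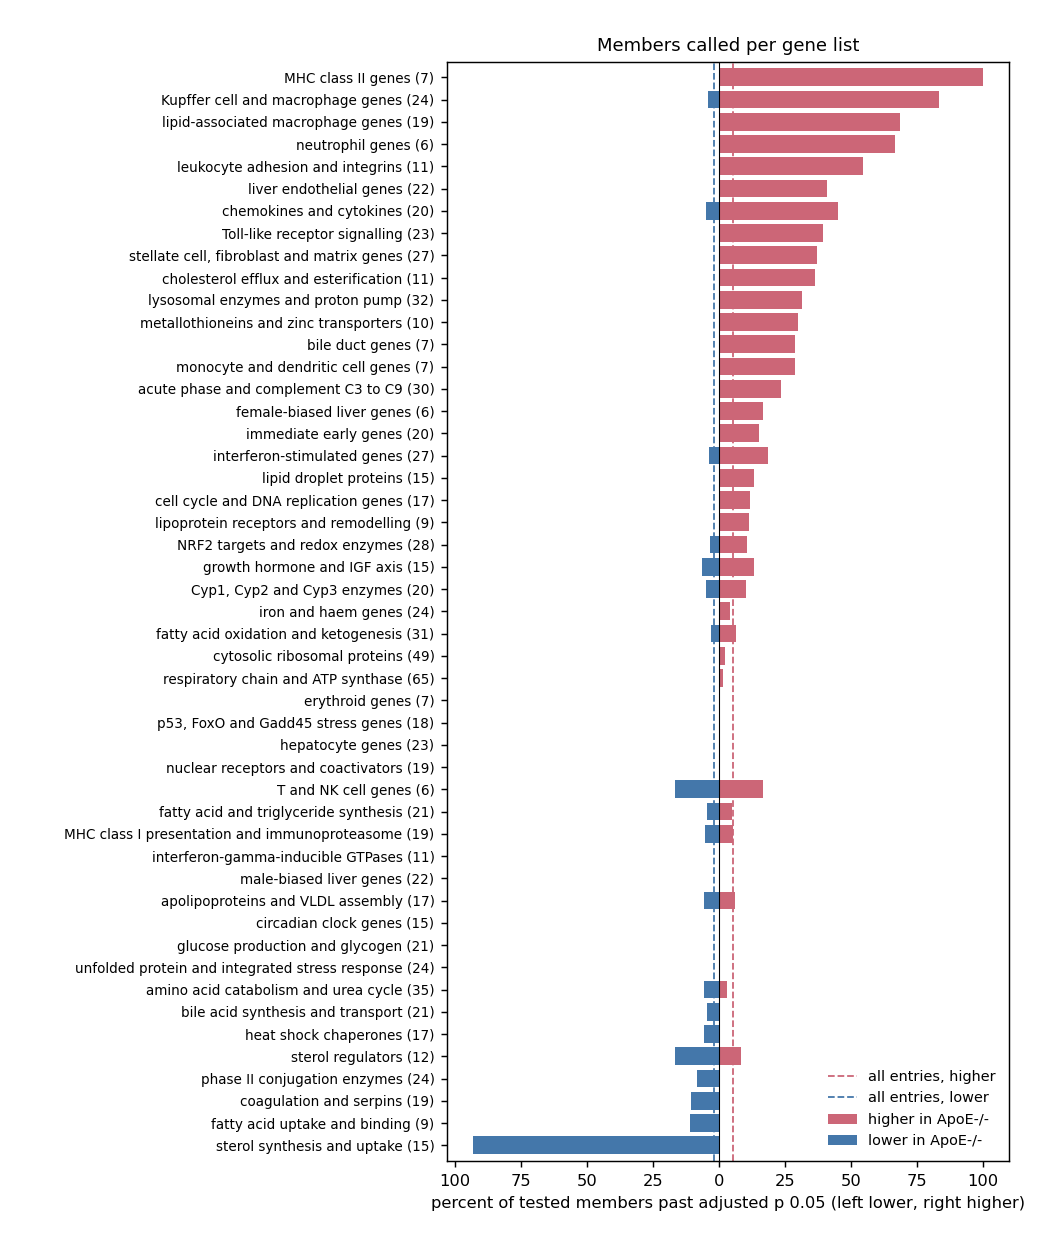
Percent of tested members past an adjusted p of 0.05 in each gene list with 6 or more tested members (number in brackets), higher in ApoE-/- to the right and lower to the left; dashed lines give the 5.21% and 1.93% of all entries. MHC class II and macrophage lists lie at the top and sterol synthesis at the bottom.

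Of genes close to Apoe, 24.6% were called. On chromosome 7, 57 entries lay within 5 megabases of Apoe in the GRCm38.p6 gene table; 10 rose and 4 fell, against 59 of 593 other chromosome 7 entries (9.95%). Among them Sae1, a SUMO-activating enzyme subunit, rose by 1.64 (other probes gave 1.43 and 0.03), and Arhgap35 rose by 1.45. Clasrp, a splicing-related protein, fell by 1.54 and the zinc finger gene Zfp93 fell by 1.38. Psmd8, a proteasome subunit on chromosome 7 outside that window, read 10.04, 9.80, 9.97, 9.57 and 9.63 against 6.99, 7.16, 6.88, 7.06 and 6.99. The Psmd8 difference of -2.78 ± 0.12 (adjusted p = 4.95e-12) was -3.15 between the treated groups. A flanking segment kept from the strain in which the knockout was made, and sequence differences under a probe, were not tested.

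The same genotype contrast was measured in antagonist-treated mice, which share no arrays with the untreated ones. There 700 entries passed (6.54%), 407 higher (3.8%) and 293 lower (2.74%); with equal medians 719 passed, 202 higher and 517 lower. Of the untreated calls 146 were also called in the same direction, 19.1% of the untreated and 20.9% of the treated calls, and 9 were called in opposite directions. The sign was the same in both contrasts for 64.8% of untreated calls and 52.9% of all entries. A test of the difference between the contrasts passed for 415 entries (3.88%), of which 234 were untreated calls (30.6% of these). The untreated contrast is part of the tested difference, so this share is raised by construction and is given as a description. The contrast was higher in treated mice for 147 (1.37%) and lower for 268 (2.5%), or 44 and 615 with equal medians.

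Sterol genes were lower in both contrasts, with 14 of 15 tested genes down in each and a treated median of -1.54. The difference between contrasts passed for 2 of the 15: Msmo1 was -2.76 untreated and -1.77 treated (adjusted p = 0.0493), and Stard4 -1.94 and -1.08 (adjusted p = 0.0353). Sqle, at -3.88 and -2.09, did not pass (adjusted p = 0.0608). MHC class II genes rose in both, 7 of 7 each. Of the lipid-associated macrophage genes 3 of 19 rose between the treated groups against 13 of 19 without antagonist, and the treated median was 0.18. Gpnmb was 5.81 untreated and 1.25 treated (difference -4.56 ± 0.50; adjusted p = 3.41e-05). Lpl was 2.96 and -0.17 (adjusted p = 3.39e-05), and Lgals3 2.80 and -0.18 (adjusted p = 3.39e-05). In the Kupffer cell list 7 of 24 rose between the treated groups, and Folr2 at 1.40 and 1.56 and Marco at 1.43 and 1.39 were alike in size without a difference that passed (adjusted p = 0.82 and 0.975). Cyp2a4 was 4.85 and 6.15 (adjusted p = 0.288).

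**Figure D5:**
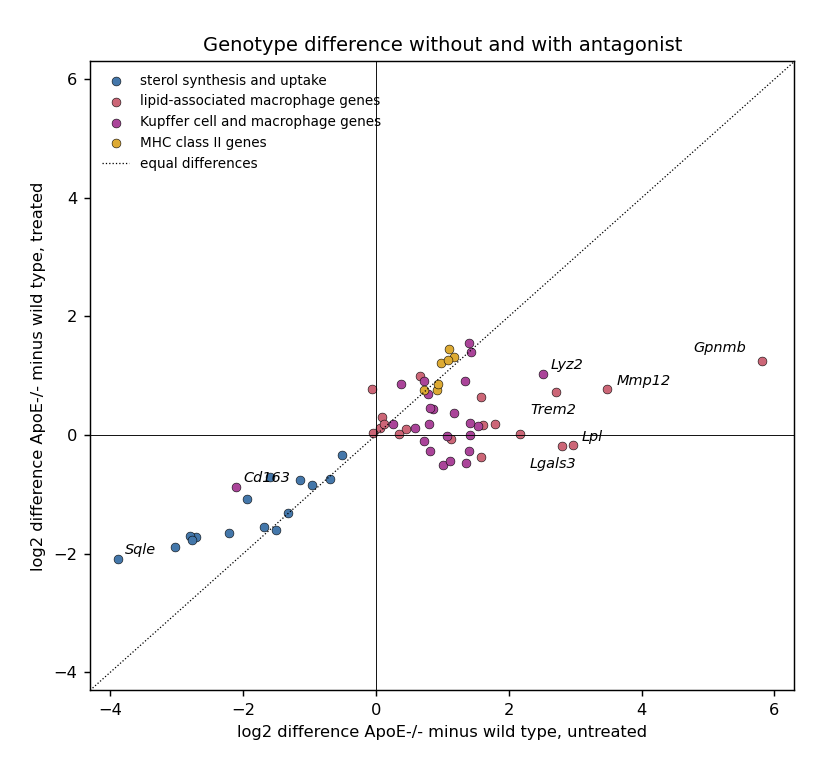
Log2 difference ApoE-/- minus wild type in untreated (horizontal) and antagonist-treated (vertical) mice for tested members of 4 gene lists; the dotted line marks equal differences. Sterol genes are below 0 on both axes, MHC class II genes above 0 on both, and Gpnmb, Mmp12, Lpl and Lgals3 are far right of the line.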

How the data were processed

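Liver RNA was measured on 20 Illumina mouse BeadChip arrays. The deposited table holds the authors' probe signal (intensity) and a detection p-value per array; per the submitters' processing notes GenomeStudio and BeadStudio were used. Array means are equal within each genotype and batch, so a scaling preceded deposit. A deposited table of the authors' processed values on a linear intensity scale was an alternative only.

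Here the signals were background-corrected by normexp, its negative-control mean and variance estimated through the detection p-values, then quantile normalised with an offset of 16 and put on a log2 scale (neqc, limma 3.58.1, R 4.3.3). Limma's lmFit and eBayes were fitted to 4 group means on all 20 arrays, with Benjamini-Hochberg adjustment over 10703 entries. Probes were kept if the detection p was under 0.05 on 5 or more of the 10 untreated arrays, with the brightest probe standing for a symbol. Of 45281 probes 34885 had 1 symbol, 18 several and 10378 none; symbols were updated to the RefSeq GRCm38.p6 table. Where a probe was undetected on all arrays of a group, the fold is a bound, the bright mean against the dim mean with each array at no less than its lowest detected signal. The number of arrays limits precision. Fits were tested on simulated data.

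Named were Apoe, the 20 greatest rises and falls, the first 4 and up to 6 called members of each list, and called neighbours of Apoe, some left out. Dhcr7, Ebp, Hsd17b7, Sc5d, Pltp, Capg, Emp1, Ms4a7, C1qb, Adgre1, Tyrobp and Myd88 are further list members named after their values were seen. So are C1qa, C4b, Hc, C9, Cfb, Hp, Fga, Fgg, Apcs, Orm2, Prtn3, Fpr2, Lgals1, Ctsd, Ctsl and Mmp13. The comparison and gene lists were chosen with earlier results of these data known. Some genes are not reported here. Alternatives covered normalisation, filters, batch, slide and left-out arrays.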

Additional observations from a re-analysis of the deposited data

Results flagged for a closer look

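Of 212 groups of 5 arrays tested over 106 followed genes, 5 held an array far from the rest; chance gives about 1 in 20. Adgre1 was 9.92 on ApoE-/- array 5 against 9.39 to 9.51 on the others, and Cd14 was 7.20 on ApoE-/- array 1 against 6.91 to 6.97. In wild type Vwf was 4.90 on array 4 against 4.28 to 4.42, Krt8 was 10.83 on array 2 against 11.29 to 11.46, and Clasrp was 6.37 on array 1 against 6.50 to 6.54.

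For 46 of the 106 genes the genotype difference itself differed between treated and untreated mice (limma, adjusted p under 0.05), given as treated minus untreated log2 difference, against 3.88% of all entries. Many of these genes were named for their untreated difference, which enters the tested value with opposite sign, so the count and its direction are raised by construction. Beside Msmo1 at 0.99 and Stard4 at 0.87, Cd163 was at 1.23, Sult5a1 at 1.30 and Tfpi at 0.69, each a fall that was smaller with antagonist. All others were negative. Among lipid-associated macrophage genes Gpnmb was at -4.56, Lpl at -3.13, Lgals3 at -2.98, Mmp12 at -2.71, Cd63 at -2.14, Trem2 at -1.99, Ms4a7 at -1.94, Emp1 at -1.59 and Cd9 at -1.43. Among other macrophage, lysosomal and lipid genes Cd207 was at -2.08, Clec7a at -1.74, Tyrobp at -1.66, Lyz1 at -1.51, Lyz2 at -1.49, C1qb at -1.42, C1qc at -1.37, Ctss at -1.20, Tmem86a at -1.53, Lgmn at -1.15 and Hmox1 at -1.81. Among inflammatory genes Ear3 was at -2.52, Bcl2a1d at -2.46, Ear10 at -2.40, Lcn2 at -2.89, Saa3 at -2.84, S100a9 and Cxcl1 at -2.28, Ccl4 at -2.26, S100a8 at -2.16, Tlr2 at -1.81, Tnfaip3 at -1.26, Icam1 at -1.21, Ly86 at -1.17, Vcam1 at -0.98 and Cd44 at -0.88. The interferon-stimulated genes Ifit2, Oasl2 and Ifi27l2a were at -1.19, -1.03 and -0.97. Endothelial and matrix genes were Lyve1 at -1.95, Vim at -1.30 and Col3a1 at -1.19.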

How the results depend on the processing

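The 765 untreated calls numbered 628 without a detection filter, 1038 when batch was a block, and 694 or 151 within batch 1 or 2, the latter with 2 arrays against 2; leaving out 1 array gave 610 to 729. The 700 treated calls fell to 294 in batch 1 alone, with 635 to 707 when 1 untreated array was left out. The 415 calls of the difference between contrasts became 659 with equal medians, 261 without a filter, 626 when batch was a block, 162 and 251 within batch 1 and 2, and 295 to 404 with 1 array left out. Same-numbered arrays of the 2 untreated groups deviated together with correlations of 0.466, 0.034, 0.223, 0.284 and 0.352, and only 2 of 5 correlated best with their own number, so the numbers were not taken as pairs. With the replicate block the counts were 1103 untreated, 1055 treated and 635 for the difference. Of 106 followed genes 96 were called, 43 of them under every alternative run and 53 lost under at least 1, and 0 called genes reversed. Of the 10 not called, 4 passed under at least 1 alternative (Sc5d, Pltp, Apoc2 and Saa1), and 2 reversed. Within batch 2 17 of the 96 had differences smaller by over 1.5 times, and on the authors' processed values 47 did. Srebf1 was at -0.034 in batch 2 alone. Abca1 was at -0.175 there and between -0.107 and 0.215 when 1 array was left out. Signals near background limit sizes, and the causes of these shifts were not tested.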

Other observations

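Among the 20 greatest rises were genes of no list used above. Tmem86a, which encodes a lysoplasmalogenase, read 7.52, 6.90, 7.48, 7.56 and 7.18 on the wild-type arrays and 9.65, 9.51, 9.38, 9.21 and 9.12 on the ApoE-/- arrays (log2 difference 2.05; limma adjusted p = 4.41e-08). Ear3 and Ear10, of the eosinophil-associated ribonuclease family, rose by 2.27 and 2.23; the family has near-identical members, so which of them gave the signal is uncertain. Bcl2a1d, a survival gene of the Bcl2 family with near-identical copies, rose by 2.01.

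Some falls lay outside sterol synthesis. Lgals4, a galectin best known from gut epithelium, fell by 1.37 (adjusted p = 0.000834), and a second Lgals4 probe by the same test fell by 1.39. Sult5a1, a sulfotransferase, fell by 1.33. Tfpi, the tissue factor pathway inhibitor, fell by 0.76 (adjusted p = 0.000756), while a dimmer Tfpi probe near background differed by 0.07. Ech1, a fatty acid oxidation isomerase encoded on chromosome 7, read 12.89 ± 0.08 (SD, n = 5) and 12.26 ± 0.17 and fell by 0.63 (adjusted p = 3.99e-05). Between the antagonist-treated groups the Ech1 difference was -0.58.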
